A study of Mus musculus with 7 samples.

Results

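The vacuolar-type proton ATPase and the marker genes of the intercalated cells of the collecting duct were followed in kidneys of mice that lack Slc7a9. The members were the protein-coding genes of GENCODE release M21 (GRCm38) whose symbols begin with Atp6v0 or Atp6v1, plus Atp6ap1, Atp6ap2, Slc4a1, Slc4a9, Slc26a4, Slc26a7, Rhbg, Rhcg, Foxi1, Car2, Insrr and Hmx2. This gave 35 genes, all found among the 45706 genes of the tables, of which 25 belong by name to the pump and 10 to intercalated cells. The 4 ergothioneine kidneys came from male Slc7a9-/- mice given L-ergothioneine, a dietary sulfur antioxidant, in the drinking water at 16 mg/kg/day. The 3 untreated kidneys came from male mice of the same genotype that received none, and all 7 animals were aged 6 months. Loss of Slc7a9, a subunit of the transporter that reclaims cystine in the proximal tubule, is a model of cystinuria. Every animal carried the deletion, so no value sets the model against wild-type kidney, and the labels name neither litter nor cage.

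The pump has a cytosolic V1 sector, which splits ATP, and a membrane V0 sector, whose ring of proteolipids carries protons. Most of its subunits are made in every cell and acidify lysosomes and endosomes, while some isoforms are largely kept to epithelia that secrete acid. Intercalated cells place the pump on their plasma membrane: type A cells secrete protons and return bicarbonate to blood through the exchanger AE1 (Slc4a1), and type B cells secrete bicarbonate through pendrin (Slc26a4). Proximal tubule cells also carry the pump in their brush border and endosomes.

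Libraries held 14843899 to 19791575 expected counts, and 15399 genes had enough counts for the test. Levels per library are given as CPM, counts relative to the TMM-scaled library size, in the order of the mouse numbers in the labels. Changes are edgeR log2 fold changes of ergothioneine over untreated with their standard error, called where the p adjusted over all genes tested was under 0.05. Levels between genes are compared as TPM, which is corrected for length, rescaled here to protein-coding genes. Small non-coding RNA took 37.4% to 48.4% of the deposited TPM in the ergothioneine libraries and 48.6% in untreated library 3, against 12.03% and 16.1% in untreated libraries 1 and 2, which stand apart in this respect. The 7 libraries are whole kidney, where a change in the number of cells of a type and a change in RNA per cell cannot be told apart.

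Intercalated cell genes and pump subunits that changed with ergothioneine were all higher. Of 33 members tested, 9 rose and 0 fell: Slc4a1, Slc26a4, Rhbg, Atp6v1g3, Atp6v0d2, Atp6v1f, Atp6v0b, Atp6ap1 and Atp6v0c. That is 27.3% of the tested members, where 3.58% of all 15399 genes tested were higher, 3.57% lower and 7.16% called in either direction. With all libraries no member was lower at an unadjusted p under 0.05 either, by edgeR or DESeq2 (0 of 33 and 0 of 34). Without untreated library 3, 1 member was lower at that level by edgeR. The CPM of the groups did not overlap for 14 members, all higher with ergothioneine, or 42.4% of those tested, against 9.46% of all genes with ergothioneine higher and 9.11% with it lower. These shares are not like for like. The median standard error was 0.072 for the tested members and 0.107 for all genes tested, so equal changes are called more readily among members. Members were also chosen with earlier results of these data known. The direction depends on the unit for 4 of the 9, Atp6v1f, Atp6ap1, Atp6v0b and Atp6v0c. They had negative log2 differences on deposited TPM, where the median gene lay at -0.32, and positive ones once TPM was rescaled to protein-coding genes. On that rescaled TPM none of these 4 was called (limma adjusted p = 0.174 to 0.353), and their groups overlapped. Of all genes called, 50.1% were higher on counts and 3.13% on log2(TPM + 1). The median log2 fold change was 0.16 over the tested members and -0.00 over all genes tested, and 30 of the 33 values were above 0. Without untreated library 1, 5 of the 9 lost their calls and 1 other member gained one. Without untreated library 2, 2 lost their calls and 2 others gained one. With newly called members included, the count of 9 was 5 without untreated library 1, 6 without ergothioneine library 1, and 7 to 9 without any other single library. It was 3 against untreated library 3 alone, where the members' median was 0.16; in that contrast the untreated group has 1 library, which is assumed to vary like the ergothioneine libraries, so its calls have no replicate check on the untreated side.

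**Figure D1:**
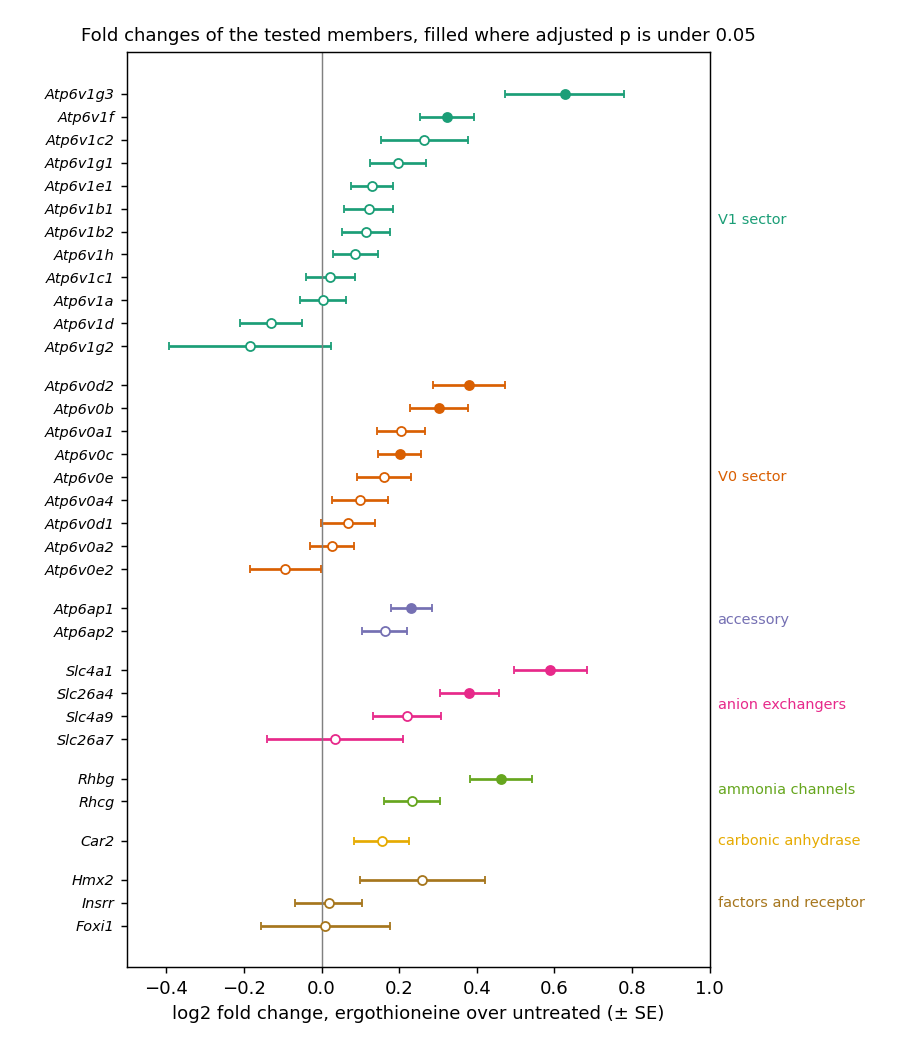
Log2 fold change of ergothioneine over untreated with its standard error (x axis) for the 33 tested members, grouped by role (y axis). Filled points mark the 9 members with an edgeR adjusted p under 0.05, all to the right of 0; on deposited TPM the signs of Atp6v1f, Atp6ap1, Atp6v0b and Atp6v0c are negative.

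Among the bicarbonate and anion exchangers the type A and type B genes Slc4a1 and Slc26a4 both rose. Slc4a1 (chromosome 11, 102348824 to 102366203) had 64.0, 66.8, 48.8 and 61.3 CPM in the ergothioneine kidneys, against 38.0, 41.3 and 41.0 CPM in the untreated kidneys. The lowest treated kidney lay above the highest untreated one. Its change of 0.59 ± 0.09 (SE) was called by edgeR (adjusted p = 0.00154), and the value is 50.4% higher on a linear scale. Slc26a4 (chromosome 12, 31519827 to 31559969) had 64.6, 70.3, 59.4 and 59.4 CPM with ergothioneine, against 46.9, 46.2 and 53.2 CPM untreated. The groups again did not overlap, and the change was 0.38 ± 0.08 (edgeR adjusted p = 0.00474). Both kept their calls without any single library (edgeR adjusted p up to 0.0135 for Slc4a1 and 0.0277 for Slc26a4). Against untreated library 3 alone neither was called (0.141 and 0.211, with changes of 0.56 and 0.26).

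Other exchangers did not pass. Slc4a9, which encodes AE4 of the basolateral side of type B cells, had 49.3, 42.3, 40.4 and 44.1 CPM with ergothioneine and 39.8, 32.6 and 40.9 CPM untreated (0.22 ± 0.09, edgeR adjusted p = 0.151). The ranges of the groups met by a narrow margin, since ergothioneine kidney 3 was below untreated kidney 3. Slc26a7, a basolateral anion transporter of acid-secreting cells, was low, at 4.85 ± 0.798 CPM with ergothioneine (SD, n = 4) and 4.76 ± 0.707 CPM untreated (SD, n = 3), with a change of 0.03 ± 0.17 (edgeR adjusted p = 0.945). Whether Slc4a1 changed more than Slc26a4 or Slc4a9 was not tested.

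Slc4a1 is also the band 3 protein of red cells, so red cell markers were set beside it. The 9 red cell genes found in the tables summed to 11.1 to 16.5 CPM in ergothioneine kidneys and 18.9, 10.99 and 9.23 CPM in untreated kidneys 1 to 3. The overlap rests on untreated kidney 1, since the other 2 untreated sums lay below every ergothioneine sum. Of the list 3 could be tested and 0 were called (0 at an unadjusted p under 0.05 by edgeR and by DESeq2), with a median change of 0.28. That median was 0.55 without untreated library 1, with 1 gene at an unadjusted p under 0.05, 0.028 without untreated library 2 and 0.93 against untreated library 3 alone, with 0 called each time. The part of red cells in the Slc4a1 change was not tested. Alas2, the haem synthesis enzyme of red cell precursors, took most of the sum, at 10.7 ± 1.78 CPM with ergothioneine and 10.6 ± 4.84 CPM untreated (SD, n = 4 and 3). Globin genes were near 0, but the depletion kit named in the labels also removes globin mRNA, so they are no measure of blood here.

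Of the ammonia channels, Rhbg rose and Rhcg missed the threshold. These Rh glycoproteins let ammonia cross the membranes of collecting duct cells. Rhbg (chromosome 3, 88242874 to 88254709), on the basolateral side, had 31.6, 28.4, 28.1 and 29.6 CPM with ergothioneine, against 22.4, 21.5 and 20.1 CPM untreated. All 4 treated values exceeded the 3 untreated ones, and both groups were tight. The change was 0.46 ± 0.08 (edgeR adjusted p = 0.00153), it kept its call without each of the 7 libraries (adjusted p up to 0.00849). Against untreated library 3 alone the change was 0.55. Rhbg shares 1190 exon bases with Gm38392 on the same strand, which stood at 0.0361 CPM. Rhcg had 64.6, 73.3, 65.3 and 62.7 CPM with ergothioneine and 62.2, 53.5 and 53.9 CPM untreated. Its groups did not overlap, though only by a small gap, and its change of 0.23 ± 0.07 had an edgeR adjusted p of 0.065. Without untreated library 1 Rhcg passed as higher (0.31).

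Car2, the cytosolic carbonic anhydrase that supplies protons and bicarbonate in intercalated and proximal cells, was among the most abundant members. It had 276, 266, 235 and 276 CPM with ergothioneine, against 252, 244 and 212 CPM untreated. The ranges overlapped, and the change of 0.16 ± 0.07 was not called (edgeR adjusted p = 0.223).

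The regulators of the cell type did not pass. Foxi1, the forkhead factor needed for intercalated cells to form, had 26.5, 31.5, 33.4 and 21.3 CPM with ergothioneine, against 32.8, 25.3 and 25.6 CPM untreated. Both groups spread over the same range (0.01 ± 0.17, edgeR adjusted p = 0.984). An approximate 95% interval of the change ran from -0.32 to 0.34. It was taken from the standard error by a normal approximation, which is somewhat narrow for so few libraries. Insrr, the insulin receptor-related receptor that senses alkali, was measured more closely and stood at 32.2 ± 2.66 CPM with ergothioneine and 31.9 ± 3.37 CPM untreated (SD, n = 4 and 3). Its change was 0.02 ± 0.09 (edgeR adjusted p = 0.939). Hmx2, a homeobox factor, stood at 5.40 ± 0.672 CPM with ergothioneine and 4.50 ± 0.429 CPM untreated (0.26 ± 0.16, edgeR adjusted p = 0.399).

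**Figure D2:**
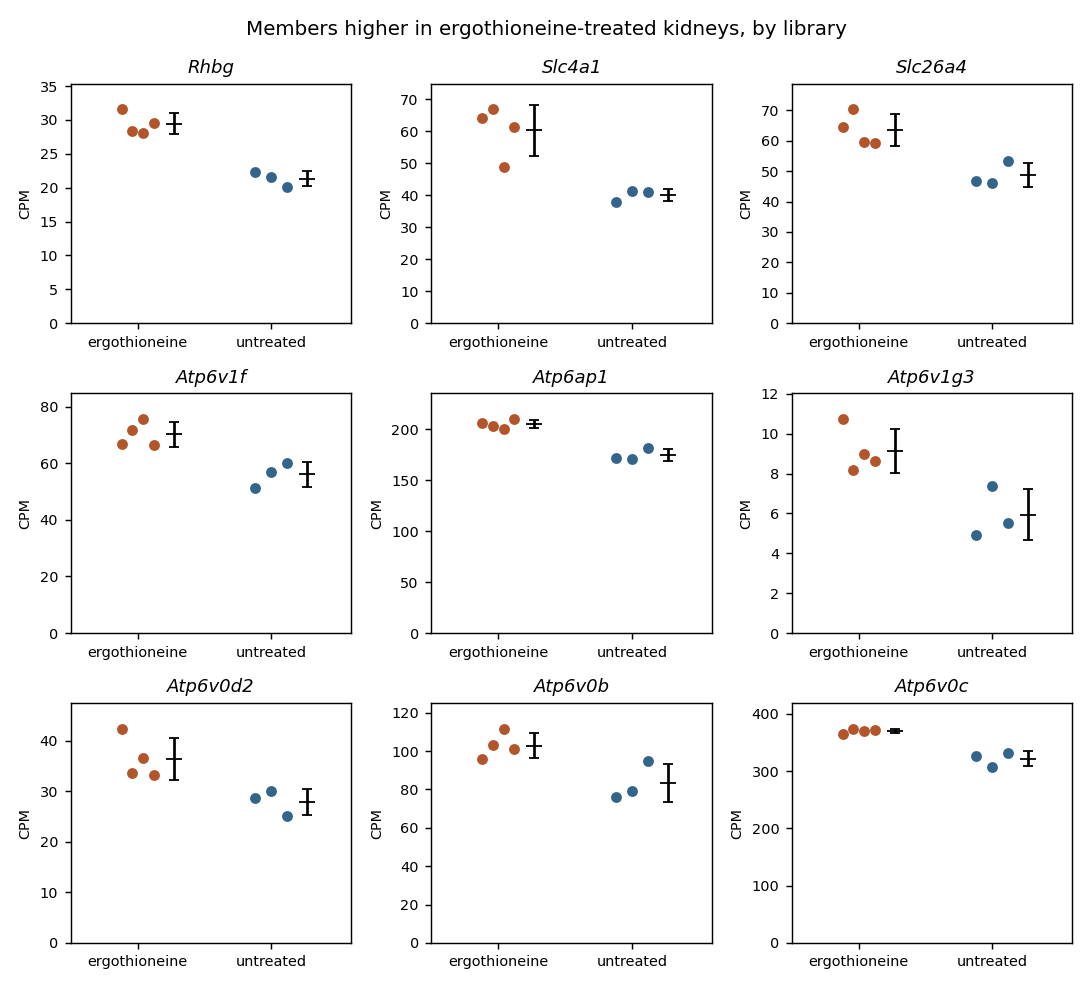
CPM per library (y axis, from 0) of the 9 members that rose, in 4 ergothioneine and 3 untreated kidneys (x axis). Points are libraries and bars show mean ± SD beside them. No panel shows an overlap between the groups, and for Atp6v0b the closest libraries stand at 95.8 against 94.7 CPM. On deposited TPM the differences of Atp6v1f, Atp6ap1, Atp6v0b and Atp6v0c are negative. On TPM over protein-coding genes the groups of these genes overlap.

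In the V1 sector 2 of 12 tested subunit genes rose (16.7%, against 3.58% of all genes tested). The larger change was that of Atp6v1g3 (chromosome 1, 138273738 to 138289462), the kidney isoform of stalk subunit G. It had 10.7, 8.20, 8.999 and 8.62 CPM with ergothioneine, from 154 to 189 counts per library, against 4.93, 7.37 and 5.51 CPM untreated, from 86 to 110 counts. Its change was 0.63 ± 0.15 (edgeR adjusted p = 0.0186). It lost its call without ergothioneine library 1 (0.0738), untreated library 1 (0.0995) or untreated library 3 (0.0709). Atp6v1f (chromosome 6, 29467718 to 29470512), a small subunit of the rotor, had 66.9, 71.9, 75.7 and 66.5 CPM with ergothioneine, against 51.5, 56.9 and 60.2 CPM untreated. The groups were clear of each other, with a change of 0.32 ± 0.07 (edgeR adjusted p = 0.00886) that missed the threshold without untreated library 1 (0.0561).

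Catalytic subunit A did not share this change. Atp6v1a had 641, 640, 633 and 671 CPM with ergothioneine, against 670, 629 and 635 CPM untreated. The groups coincided, with a change of 0.00 ± 0.06 (edgeR adjusted p = 0.982). Subunit B is made as the isoform Atp6v1b1, of intercalated cells, and the general isoform Atp6v1b2. Atp6v1b1 stood at 71.4 ± 4.31 CPM with ergothioneine and 65.6 ± 1.44 CPM untreated, and Atp6v1b2 at 346 ± 8.26 CPM with ergothioneine and 320.02 ± 26.98 CPM untreated (SD, n = 4 and 3). Their changes of 0.12 ± 0.06 and 0.11 ± 0.06 were not called (edgeR adjusted p = 0.289 and 0.321).

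The remaining V1 genes lay between -0.18 and 0.27 and none passed. Atp6v1c2, the restricted isoform of subunit C, had groups that did not overlap, at 13.3 ± 1.46 CPM with ergothioneine and 11.1 ± 0.550 CPM untreated (SD, n = 4 and 3; 0.27 ± 0.11, edgeR adjusted p = 0.176). So did Atp6v1e1, of the stalk (0.13 ± 0.05, edgeR adjusted p = 0.163). The ubiquitous Atp6v1g1 (0.20 ± 0.07), the regulatory Atp6v1h (0.09 ± 0.06), the ubiquitous Atp6v1c1 (0.02 ± 0.06) and the rotor gene Atp6v1d (-0.13 ± 0.08) overlapped between groups, with edgeR adjusted p from 0.112 to 0.894. Atp6v1g1 passed as higher without untreated library 2 (0.29). Atp6v1g2, the neuronal isoform, was at 2.50 ± 0.393 CPM with ergothioneine and 2.83 ± 0.261 CPM untreated (SD, n = 4 and 3). Atp6v1e2, the testis isoform, had 0 counts in all 7 libraries, and Atp6v1fnb, which is named for lying beside Atp6v1f, had 0 to 3 counts. Neither could be tested, and Atp6v1g2 was at -0.18 ± 0.21 (edgeR adjusted p = 0.687).

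In the V0 sector 3 of 9 genes rose (33.3%, against 3.58% of all genes tested), among them both ring proteolipid genes. Atp6v0d2 (chromosome 4, 19876841 to 19922605), the restricted isoform of subunit d known from kidney, osteoclasts and macrophages, had 42.4, 33.5, 36.6 and 33.2 CPM with ergothioneine, against 28.7, 30.02 and 25.1 CPM untreated. Every treated kidney was above every untreated one, with a change of 0.38 ± 0.09 (edgeR adjusted p = 0.0189). It lost the call without ergothioneine library 1 (0.0651) or untreated library 3 (0.0864). Against untreated library 3 alone the change was 0.54. The 10 macrophage markers summed to 127 to 148 CPM with ergothioneine and 139 to 148 CPM untreated, and of them 0 rose and 1 fell, the leukocyte gene Ptprc (-0.53); 1 fell without each single library and 2 against untreated library 3 alone.

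The proteolipid gene Atp6v0b (chromosome 4, 117884326 to 117887333) had 95.8, 103, 112 and 101 CPM with ergothioneine, against 76.3, 79.4 and 94.7 CPM untreated. Untreated kidney 3 came close to the treated ones. Its change of 0.30 ± 0.08 (edgeR adjusted p = 0.0217) was lost without ergothioneine library 2 (0.0601) or 3 (0.0578) and without untreated library 1 (0.106) or 2 (0.0884). Against untreated library 3 alone it was 0.12. Atp6v0c (chromosome 17, 24163866 to 24169702), the main proteolipid, had 365, 374, 371 and 371 CPM with ergothioneine, against 327, 308 and 332 CPM untreated. The treated values were nearly equal, and the change of 0.20 ± 0.05 was called with a narrow margin (edgeR adjusted p = 0.0341). Only the omission of untreated library 3 left it called (0.046), and each of the other 6 omissions ended the call (0.0557 to 0.1). The deposited counts of Atp6v0c were not whole in any library, as estimates are where reads match several sequences, and its level is uncertain to that extent.

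Other V0 genes were not called. Atp6v0a4, the a isoform of intercalated and proximal cells, had 278, 329, 271 and 285 CPM with ergothioneine, against 278, 249 and 286 CPM untreated. One treated kidney stood high and the rest lay within the untreated range (0.10 ± 0.07, edgeR adjusted p = 0.485). Atp6v0a4 shares 259 exon bases with D630045J12Rik on the same strand, which stood at 193 CPM, so its counts may hold reads of that gene. Atp6v0a1 did not overlap between groups, at 74.9 ± 3.72 CPM with ergothioneine and 65.0 ± 2.60 CPM untreated (SD, n = 4 and 3), and missed the threshold (0.20 ± 0.06, edgeR adjusted p = 0.0558). It passed with upper-quartile scaling or other low-count filters (0.21). Atp6v0a2, known from the Golgi and endosomes, was at 0.03 ± 0.06, Atp6v0d1 at 0.07 ± 0.07, Atp6v0e at 0.16 ± 0.07 and Atp6v0e2 at -0.09 ± 0.09 (edgeR adjusted p from 0.194 to 0.854). Atp6v0e passed as higher without untreated library 2 (0.26).

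Of the accessory subunits, Atp6ap1 rose. Atp6ap1 (chromosome X, 74297097 to 74304721), which encodes the assembly subunit Ac45, had 206, 203, 200.3 and 209.8 CPM with ergothioneine, against 171, 171 and 181 CPM untreated. The groups were well apart and each was tight, with a change of 0.23 ± 0.05 (edgeR adjusted p = 0.0128). The call was lost without untreated library 1 (0.0566), where the change was 0.22. Atp6ap2, the prorenin receptor, had 101, 94.8, 94.95 and 101 CPM with ergothioneine, against 90.3, 89.7 and 82.6 CPM untreated. It did not overlap between groups, yet the change of 0.16 ± 0.06 was not called (edgeR adjusted p = 0.109).

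Members differed far more in level than between the groups. By TPM over protein-coding genes, Atp6v0c stood highest at 662 TPM over the 7 libraries, followed by Atp6v1a at 326 TPM, Car2 at 299 TPM, Atp6v1e1 at 265 TPM and Atp6v1f at 262 TPM. Subunits found in all cells took the upper ranks, and Atp6v0a4 at 173 TPM was the highest of the restricted isoforms. The intercalated cell members other than Car2 lay lower: Rhcg at 65.3 TPM, Slc26a4 at 34.7 TPM, Slc4a1 at 32.0 TPM, Slc4a9 at 27.9 TPM, Rhbg at 26.6 TPM, Foxi1 at 22.9 TPM and Insrr at 12.1 TPM. Atp6v1g3 at 8.18 TPM, Hmx2 at 6.62 TPM, Atp6v1g2 at 3.74 TPM and Slc26a7 at 1.82 TPM were the lowest of those tested. The members that rose were found at both ends of this order, since Atp6v0c ranked 1 and Atp6v1g3 ranked 30 of 35. Within a group CPM varied between kidneys by a median of 6.37% (coefficient of variation) with ergothioneine and 7.97% untreated over the tested members.

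**Figure D3:**
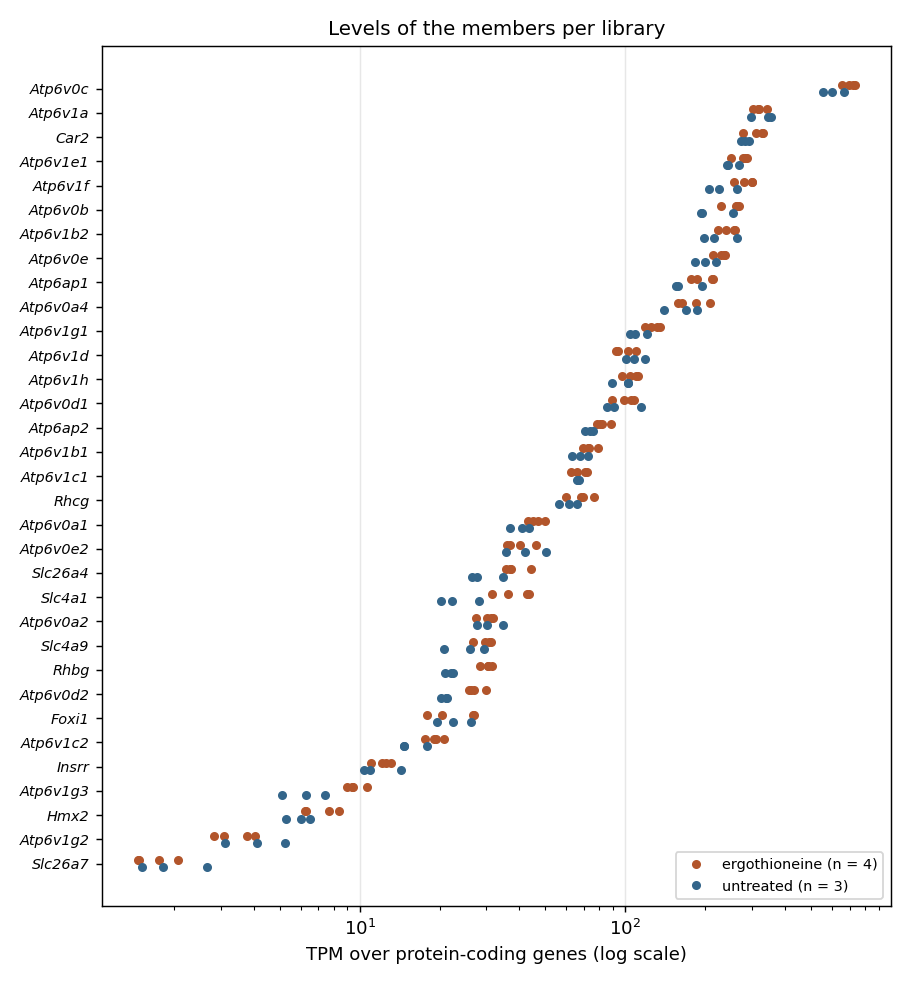
TPM over protein-coding genes (x axis, log scale) of the 33 tested members (y axis, ordered by mean level), with 1 point per library for 4 ergothioneine and 3 untreated kidneys. Levels run from 1.82 TPM for Slc26a7 to 662 TPM for Atp6v0c, a far wider span than the gap between the groups.

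A share of one isoform within its subunit does not depend on how a library is scaled. Atp6v1g3 made up 8.03%, 6.26%, 6.77% and 6.41% of the TPM of subunit G in the ergothioneine kidneys, against 4.49%, 5.64% and 5.19% in the untreated kidneys. These groups did not overlap. Atp6v0d2 took 25.1%, 19.9%, 19.98% and 20.6% of subunit d with ergothioneine, against 18.8%, 19.99% and 15.1% untreated, where the ranges met. Atp6v1c2 took 22.1% ± 2.03 of subunit C with ergothioneine and 19.1% ± 1.82 untreated (SD, n = 4 and 3), again with overlap. The B1 isoform, Atp6v1b1, held 23.1% ± 1.34 of subunit B with ergothioneine and 23.2% ± 1.43 untreated (SD, n = 4 and 3). Atp6v0a4 held 64.5% ± 2.87 of subunit a, with Tcirg1 counted as its a3 isoform, in ergothioneine kidneys and 65.0% ± 2.94 in untreated ones (SD, n = 4 and 3). Both shares differed by less than the spread between kidneys. Atp6v0e2 took 14.7% ± 1.25 of subunit e with ergothioneine and 17.5% ± 3.26 untreated (SD, n = 4 and 3). Shares are given with no test, since members were chosen with results of these data known.

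**Figure D4:**
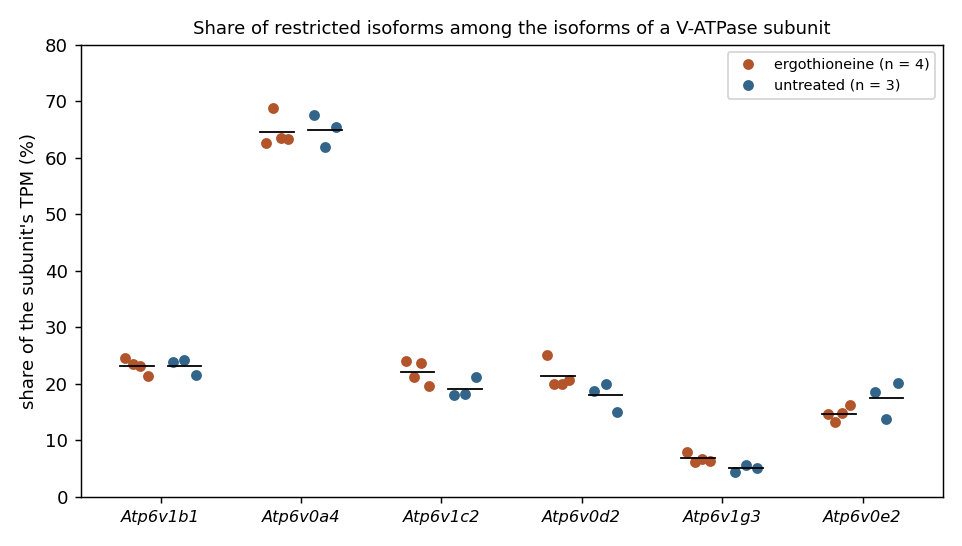
Share of 6 restricted or second isoforms in the summed TPM of their subunit (y axis, percent) in 4 ergothioneine and 3 untreated kidneys, with 1 point per library and a line at the mean. The groups are separate for Atp6v1g3 and overlap for the other 5.

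Promoters were examined because members of several roles rose together. RefSeq (GRCm38.p6) promoter sequences of 23 members were at hand, each from 250 bases before to 50 bases after the start. CACGTG, the palindromic E-box bound by helix-loop-helix factors such as TFEB and the clock activators, was present in those of Atp6v0b, Atp6v0d1, Atp6v0e and Atp6v1a, which is 17.4% of the 23 members, against 8.09% of all genes with a promoter there. It was found in 1 of 6 risen members and in 3 of 15 tested members that were not called. The longer form GTCACGTG, searched on both strands and overlapping that E-box, was in Atp6v0b and Atp6v0d1 (8.70% of members and 2.55% of all genes). TGTTTAC, a core that forkhead factors recognise, was found on either strand in Atp6v1b1 alone (4.35% of members and 4.05% of all genes), and TGTTTGC in none of the 23 (5.76% of all genes). The 250 bases before the start are shown 5′ to 3′ for the promoter with a pair of E-boxes, for the one with a forkhead core and for the risen pendrin gene, which had neither. Capitals mark CACGTG in Atp6v0b (chr4:117887330-117887579, minus strand), beginning 36 and 18 bases before the start, and TGTTTAC in Atp6v1b1 (chr6:83742767-83743016, plus strand), beginning 98 bases before it. The Slc26a4 stretch (chr12:31559985-31560234, minus strand) holds no capitals.
Atp6v0b: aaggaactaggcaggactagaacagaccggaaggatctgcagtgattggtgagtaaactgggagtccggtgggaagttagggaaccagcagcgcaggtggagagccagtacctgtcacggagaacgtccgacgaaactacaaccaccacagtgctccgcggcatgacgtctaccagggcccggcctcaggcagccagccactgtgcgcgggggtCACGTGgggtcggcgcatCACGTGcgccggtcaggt
Atp6v1b1: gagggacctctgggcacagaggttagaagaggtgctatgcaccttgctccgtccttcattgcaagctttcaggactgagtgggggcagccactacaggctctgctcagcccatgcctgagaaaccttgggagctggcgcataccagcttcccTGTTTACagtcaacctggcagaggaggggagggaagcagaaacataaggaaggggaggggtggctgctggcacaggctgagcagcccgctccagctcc
Slc26a4: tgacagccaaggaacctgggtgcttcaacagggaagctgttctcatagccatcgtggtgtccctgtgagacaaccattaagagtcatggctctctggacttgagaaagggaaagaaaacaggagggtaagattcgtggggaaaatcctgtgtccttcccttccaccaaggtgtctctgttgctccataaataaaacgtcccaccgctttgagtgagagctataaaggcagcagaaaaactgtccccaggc

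Of 15 intercalated cell genes outside the rule 2 rose and 0 fell (1 to 3 rose without a single library), where 3.58% of all genes tested were higher. Their median was 0.16, and 11 of the 15 values were above 0. By edgeR 7 were at an unadjusted p under 0.05, and of these only Tfcp2l1 (-0.16) was lower. The list sums overlapped, at 1032 to 1121 CPM with ergothioneine and 1067 to 1167 CPM untreated. Tfcp2l1 took most of them, at 704 CPM with ergothioneine and 786 CPM untreated. Oxgr1, the receptor for oxoglutarate found on type B cells, had 43.5, 37.6, 41.0 and 40.9 CPM with ergothioneine, against 28.1, 32.9 and 27.2 CPM untreated (0.47 ± 0.08, edgeR adjusted p = 0.0015). Its groups were far apart. Spink8, a protease inhibitor gene, had 6.53, 6.17, 5.67 and 6.27 CPM with ergothioneine, against 4.36, 3.95 and 3.78 CPM untreated (0.61 ± 0.15, edgeR adjusted p = 0.0187), and lost its call without ergothioneine library 1 (0.0599), untreated library 2 (0.0523) or untreated library 3 (0.0641). The type A genes Aqp6 and Dmrt2 were at 0.06 and -0.03 (edgeR adjusted p = 0.76 and 0.953). Kit and Hepacam2, of the same list, were at 0.16 and 0.28 without overlap between groups (edgeR adjusted p = 0.286 and 0.111). Of the a3 subunit gene Tcirg1 and 14 factors that assemble or regulate the pump, 0 passed by edgeR or DESeq2, with 4 and 3 at an unadjusted p under 0.05 and a median of 0.07. By edgeR the 4 were Tcirg1 (0.28), Tbc1d24 (0.30) and Tmem9 (0.16), which were higher, and Oxr1 (-0.20), which was lower.

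Acid-base genes outside these lists moved both ways, with 4 of 21 risen and 1 fallen, where 3.58% of all genes tested were higher and 3.57% lower. Atp4a, the catalytic subunit of the proton-potassium ATPase, had 55.4, 58.6, 53.7 and 51.1 CPM with ergothioneine, against 37.5, 43.1 and 43.0 CPM untreated (0.41 ± 0.07, edgeR adjusted p = 0.00187). Its groups did not overlap, nor did those of the membrane carbonic anhydrases Car15 (0.54 ± 0.09) and Car12 (0.36 ± 0.07) and the exchanger Slc4a2 (0.30 ± 0.06), with edgeR adjusted p from 0.00318 to 0.00742. The fall was that of Car14, a membrane anhydrase (-0.40 ± 0.10, edgeR adjusted p = 0.0261). It was lost without ergothioneine library 2 (0.0509), untreated library 1 (0.0807) or untreated library 3 (0.0709). Without a single library 4 rose and 0 to 2 fell, and against untreated library 3 alone 0 rose and 0 fell.

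Markers of neighbouring segments were also measured, since whole kidney mixes them. The counts below stand beside 3.58% of all genes tested that were higher and 3.57% that were lower. Of 6 distal convoluted and connecting tubule markers 1 rose, Trpv5 (0.42 ± 0.09, edgeR adjusted p = 0.00824, 0.0508 without untreated library 1), with a median of 0.31 (0 rose without untreated library 1, 3 without untreated library 2 and 1 without any other single library), and their sum was 1616 to 1873 CPM with ergothioneine and 1321 to 1446 CPM untreated. Calb1, the calcium-binding protein calbindin, had 557, 556, 465 and 453 CPM with ergothioneine, against 242, 363 and 234 CPM untreated, without overlap (0.86 ± 0.19, edgeR adjusted p = 0.0552), and the sodium-calcium exchanger gene Slc8a1 overlapped by a narrow margin (0.50 ± 0.16, edgeR adjusted p = 0.133). Of 11 principal cell markers 1 rose, the sodium channel gene Scnn1a (0.37 ± 0.08, edgeR adjusted p = 0.0175), with a median of 0.12 and overlapping sums of 584 to 654 CPM with ergothioneine and 569.6 to 605 CPM untreated. Scnn1a lost its call without ergothioneine library 1 (0.058), untreated library 2 (0.0872) or untreated library 3 (0.0926). Of 5 thick limb markers 1 rose, Slc12a1 (0.34 ± 0.08, edgeR adjusted p = 0.013; 0.0574 to 0.0674 without ergothioneine library 1 or 2 or untreated library 3), and the sum was 4449 to 5106 CPM with ergothioneine and 4025 to 4439 CPM untreated. Of 10 proximal tubule markers 0 rose and 2 fell, Slc13a3 and Slc27a2 (-0.31 ± 0.08 and -0.29 ± 0.08, edgeR adjusted p = 0.0189 and 0.0365; up to 0.0835 and 0.186 without a single library). Their sums overlapped, at 20217 to 22408 CPM with ergothioneine and 21082 to 24804 CPM untreated, and without single libraries 0 to 3 fell. The 8 adipocyte markers summed to 12.7 to 21.7 CPM with ergothioneine and 53.3 to 65.7 CPM untreated, and 6 of 7 tested fell (6 without each single library, 4 against untreated library 3 alone). The part of these segment and fat markers in the changes of the members was not tested.

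**Figure D5:**
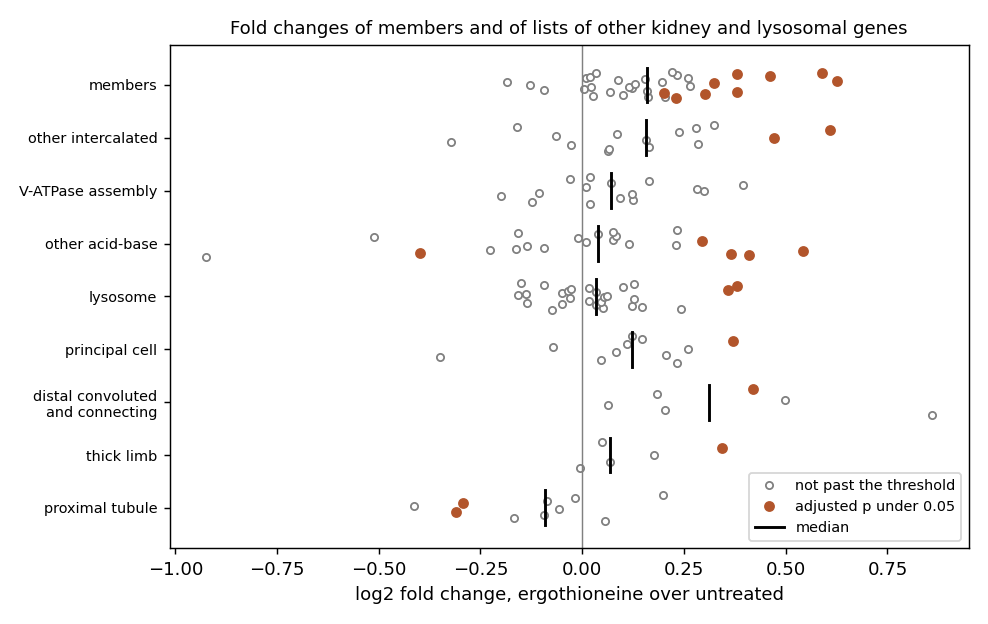
Log2 fold change of ergothioneine over untreated (x axis) for the tested members and for 8 lists of other kidney and lysosomal genes (y axis). Each point is a gene, filled where the edgeR adjusted p is under 0.05, and lines mark list medians: 0.16 for the members, 0.31 for distal convoluted and connecting tubule and -0.09 for proximal tubule. On deposited TPM several of the higher genes, such as Atp6v0c and Neu1, lie below 0.

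Most pump subunits serve lysosomes as well, so lysosomal genes were set beside them. Where 3.58% of all genes tested were higher, 2 of 27 lysosomal enzymes and membrane proteins rose and 0 fell, with a median of 0.03. They were Neu1, the sialidase (0.36 ± 0.06, edgeR adjusted p = 0.00059), and Psap, the precursor of the saposins (0.38 ± 0.07, edgeR adjusted p = 0.00307). Among the 23 tested genes of the pump itself 6 rose, with a median of 0.13. The difference between these lists was not tested.

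On the deposited TPM values the whole scale moved. The median gene lay at -0.32 on log2(TPM + 1), and 0 members were called, with 3 at an unadjusted p under 0.05 by limma, all 3 lower. Relative to that median the 9 risen members lay 0.15 to 0.63 higher. Taken as they stand, Atp6v0c, Atp6ap1, Atp6v0b and Atp6v1f were negative there, at -0.17, -0.14, -0.10 and -0.073. Among the list genes that rose, so were Slc4a2 (-0.14), Slc12a1 (-0.034), Neu1 (-0.022), Scnn1a (-0.0070) and Car12 (-0.0067). On TPM over protein-coding genes, where the median gene lay at -0.00, the 9 changes were 0.20 to 0.69, and Rhbg and Slc4a1 passed (limma adjusted p = 0.0234 and 0.0258).

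The numbers in the library names of the labels, whose meaning the labels do not give, fall into a range under 30 (ergothioneine 2 to 4, untreated 3) and a range over 40 (ergothioneine 1, untreated 1 and 2). The groups of the 9 risen members did not overlap on CPM, so their direction in each range was fixed beforehand and is no further check. Their changes were 0.15 to 0.64 in the lower range and 0.20 to 0.81 in the upper range. Slc4a1 was at 0.53 in the lower and 0.69 in the upper range, Slc26a4 at 0.25 and 0.47, and Rhbg at 0.51 and 0.52. Each range holds a group of 1 library, so these are differences with no replicate on 1 side.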

How the data were processed

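RNA of 7 whole kidneys was measured by sequencing after depletion of ribosomal RNA, per the labels' protocols. The authors deposited expected counts, estimated counts per Ensembl gene of which 3.61% were not whole, and TPM, each for 45706 genes and 7 libraries. Per the submitters' processing notes the tools included STAR 2.7.10a, RSEM 1.3.1 and Salmon 1.10.1, with builds GRCm38 and mm10; the sources used here give neither their roles nor the annotation release or strand setting. GENCODE M21 held 45143 of the gene identifiers.

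Rounded expected counts entered edgeR 4.0.16 under R 4.3.3 (low counts removed by filterByExpr, TMM, robust quasi-likelihood F test, Benjamini-Hochberg adjustment over all 15399 genes tested, threshold 0.05). Standard errors were taken as the absolute log2 fold change over the root of its F statistic. The procedure was also run on simulated counts drawn independently for each gene and library. That simulation held no differences shared by many genes of a library, so it is no check on those. Alternatives used DESeq2 1.42.0, limma 3.58.1 (voom, and trend on log2(TPM + 1) or log2(TPM + 0.1) at a mean of at least 0.5 TPM), other scalings and filters, blocks and left-out libraries. Contrasts without untreated libraries 1 and 2 and within ranges of the number in the library name were added after seeing the data.

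Members and lists were chosen with earlier results of these data known. Every member is named; values per library are given for called members and the most abundant of each role, and from other lists for up to 4 called genes of smallest p, while further members and list genes shown were chosen after their values were seen. Chi-square per degree of freedom between libraries of a group was 7.96 to 27.5, so none was a copy of another. The labels do not say whether mice shared litters, so p-values measure the spread between these samples.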

Additional observations from a re-analysis of the deposited data

Results flagged for a closer look

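Among 39 sets of 4 ergothioneine values tested for a sample far from the others, 3 held one, where chance gives about 1 in 20. Atp6v1b2 was lower in ergothioneine library 1, at 334 CPM beside 350, 351 and 351 CPM, with a gap of 0.954 of the range. The share of Atp6v0a4 in subunit a was higher in ergothioneine library 2, at 68.8% beside 62.5%, 63.4% and 63.3%, with a gap of 0.859 of the range. The share of Atp6v0d2 in subunit d was higher in ergothioneine library 1, at 25.1% beside 19.9%, 19.98% and 20.6%, with a gap of 0.862 of the range.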

How the results depend on the processing

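Under limma-voom, DESeq2, RLE or upper-quartile scaling, other low-count filters and counts without mitochondrial and haemoglobin genes, 9 to 11 members were higher and 0 lower. Of all genes in each of those fits, 2.36% to 4.13% were higher. Leaving out single libraries gave 5 to 9 members higher, newly called ones included, and 0 lower. In all, 350 to 514 genes were then higher and 337 to 589 lower, against 552 and 550. On log2(TPM + 1), log2(TPM + 0.1) and log2(TPM + 1) with no filter 0, 0 and 0 members were higher (3, 4 and 4 at an unadjusted p under 0.05 by limma, all lower), with 32, 33 and 2 genes higher and 991, 879 and 62 lower. There Atp6v1f, Atp6ap1, Atp6v0c and Atp6v0b changed sign, to -0.073, -0.14, -0.17 and -0.10 at each of the 3 settings. TPM over protein-coding genes gave 2 members higher, with 133 genes higher and 132 lower. Without untreated libraries 1 and 2 these counts were 3, 249 and 307, among library-name numbers under 30 they were 2, 191 and 234, and among those over 40 they were 4, 201 and 197. DESeq2 called 2 distal convoluted and connecting tubule markers higher (edgeR 1, and 3 with either block), and 1 proximal tubule marker higher and 3 lower (edgeR 0 and 2). The 3 settings of fewer libraries had 1 library in a group and less power by construction; the cause of the other changes was not tested.

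With the replicate number as a block 6 members were higher, with 396 genes higher and 413 lower, and Atp6ap1, Atp6v0c and Atp6v1g3 lost their calls (edgeR adjusted p = 0.0736, 0.122 and 0.0522). Same-numbered libraries did not deviate together from their group means (correlations of 0.03, -0.07 and 0.00), and none matched its own number best. With so few pairs and libraries this cannot exclude a pairing, which the labels do not state. With the range of the library-name number as a block 7 members were higher, with 452 genes higher and 469 lower. Atp6v0b and Atp6v0c then lost their calls (edgeR adjusted p = 0.0601 and 0.107).

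Differences in isoform share, ergothioneine minus untreated in percentage points, became 1.57 for Atp6v1b1 (-0.07 with all libraries), 0.906 for Atp6v1c2 (3.01) and 6.36 for Atp6v0d2 (3.47) against untreated library 3 alone, and 2.94 for Atp6v1g3 (1.76) from expected counts. Members with few counts, such as Slc26a7 and Atp6v1g2, had standard errors of 0.17 and 0.21, so small changes could not be detected for them.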

Other observations

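Tmem213, an intercalated cell gene that overlaps Atp6v0a4 on the opposite strand by 62 exon bases, had non-overlapping groups at 20.9 CPM on average with ergothioneine and 16.6 CPM untreated, and missed the threshold (log2 fold change 0.32, edgeR adjusted p = 0.0538). Tfcp2l1, a factor of collecting duct cells among the 15 intercalated cell genes outside the rule, was far more abundant. It stood at 704 CPM with ergothioneine and 786 CPM untreated (-0.16, edgeR adjusted p = 0.168), again without overlap. Slc18a1, whose locus overlaps that of Atp6v1b2 on the opposite strand with 0 shared exon bases, stood at 240.05 CPM over the 7 libraries. These genes were picked after their values were seen.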
